A study of Mus musculus with 36 samples.

Results

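The mouse IgG control of a PAX6 ChIP-seq experiment in enteric precursor cells (EPCs) gave 1007 peaks of the 3254 peaks in the series. The members were all peaks of the list called on the IgG libraries, with no limit on score or position. The other peaks came from the antibody against PAX6, with 491 in pool 1, 1032 in pool 2 and 724 in pool 3. All cells came from the ganglionic gut of CD1 mice at postnatal day 7 (P7) and were grown as neurosphere-like bodies (NLBs), and no mutation or drug is given for any group. The 4 IgG libraries (Mouse IgG, Diagenode) carried the label Pool1, as did 4 of the 16 PAX6 libraries (Anti-PAX6 Antibody, Millipore), while 6 carried Pool2 and 6 carried Pool3. The series also holds 16 input libraries, made from chromatin set aside before immunoprecipitation. The libraries of each group were merged before peaks were called, so each list is 1 sample and no spread between IgG libraries can be given. The files hold peak positions and scores and no reads, so the depth behind each peak is unknown and cell type markers could not be checked.

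In a ChIP-seq experiment, DNA fragments bound to an antibody are sequenced and the places where fragments pile up are called as peaks. Control IgG has no chosen target in chromatin, so its peaks mark places where fragments were collected or aligned in excess without a specific antibody. Mammalian genomes hold many microsatellites, stretches in which a unit of a few bases is repeated, and CA repeats, which read TG on the opposite strand, are the most common dinucleotide kind in rodents. EPCs are the neural crest derived progenitors of the neurons and glia of the gut.

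Most IgG peaks lay on simple repeats, and the sequences that follow show the kinds met among the highest scoring peaks and among those shared with PAX6. They are the plus strand of mm9, written 5′ to 3′, each with the nearest or host gene, and capitals mark the longest uninterrupted tandem run. The first is the highest scoring IgG peak, on a CA run, and the second, with a unit other than CA, was also a high scoring PAX6 peak of pool 3.
Spock1 intron, chr13:57716496-57716602: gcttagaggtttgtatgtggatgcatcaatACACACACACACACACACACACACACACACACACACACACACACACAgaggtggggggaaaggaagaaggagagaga
downstream of Gulp1, chr1:45007960-45008088: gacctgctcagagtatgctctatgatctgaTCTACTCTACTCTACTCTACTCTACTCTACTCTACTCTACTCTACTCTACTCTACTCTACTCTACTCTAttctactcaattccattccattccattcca

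Peaks without an exact run could still be repetitive. The next lines give the central 150 bases of the highest scoring IgG peak with no uninterrupted run of at least 20 bp, and of one lower in the list that was also a PAX6 peak and lay nearest to the microRNA gene AC123619.1. No base is in capitals because no such run was found.
upstream of Actrt2, chr4:154108358-154108507: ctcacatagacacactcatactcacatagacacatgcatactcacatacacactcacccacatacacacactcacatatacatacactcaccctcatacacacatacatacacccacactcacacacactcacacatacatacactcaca
near AC123619.1, chr13:60543925-60544074: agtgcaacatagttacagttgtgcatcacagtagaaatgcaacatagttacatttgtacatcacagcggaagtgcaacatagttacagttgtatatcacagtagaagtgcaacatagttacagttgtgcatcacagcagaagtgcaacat

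The first of these reads as CA steps broken by other bases, and the second repeats a longer unit. The best identity of a stretch of 100 bp with the sequence a fixed distance before it was 86% at a shift of 32 bp upstream of Actrt2. It was 100% at 35 bp near AC123619.1.

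The 4 IgG peaks that overlapped PAX6 peaks of more than 1 pool are shown for the same reason, with the run in capitals where there was one.
near Habp4, chr13:64292717-64292804: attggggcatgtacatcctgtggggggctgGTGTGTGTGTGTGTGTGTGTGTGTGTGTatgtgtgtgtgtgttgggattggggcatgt
Bcar3 intron, chr3:122182707-122182856: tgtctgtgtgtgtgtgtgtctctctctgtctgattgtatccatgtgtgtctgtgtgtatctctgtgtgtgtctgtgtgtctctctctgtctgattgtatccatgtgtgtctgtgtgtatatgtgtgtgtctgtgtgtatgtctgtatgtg
near Ocm, chr5:144792636-144792732: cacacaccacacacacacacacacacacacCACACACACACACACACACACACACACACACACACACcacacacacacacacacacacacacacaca
Stau2 intron, chr1:16332975-16333124: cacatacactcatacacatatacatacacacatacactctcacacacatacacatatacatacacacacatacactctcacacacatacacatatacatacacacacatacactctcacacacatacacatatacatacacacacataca

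Exact CA or TG runs (20 bp or longer) were found in 630 of the 1006 IgG peaks on chromosomes 1 to 19 and X, or 62.6% (Wilson 95% interval 59.6 to 65.6). All of mm9 was cut into windows of 431 bp, the median width of an IgG peak, and 4.21% of these windows held such a run. The share was 49.3% in the PAX6 peaks of pool 1 (44.9 to 53.7), 56.7% in pool 2 (53.6 to 59.7) and 57.0% in pool 3 (53.4 to 60.6). IgG was thus 8.30 percentage points above the mean of the PAX6 lists, and the exact two-sided permutation test over the 4 lists gave p = 0.50, where the smallest p that this design allows is 0.25. The intervals cover counting error only. Every list was therefore rich in these repeats. The test over lists cannot decide on the excess of IgG over PAX6, because no p below 0.25 is possible.

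The runs were long and close to the centre of the peaks. The longest run of a peak had a median of 37 bp, with 266 peaks at 40 bp or more and 14 at 60 bp or more. The longest, of 221 bp, lay in an intron of Wdr96, which encodes a WD repeat protein, in a peak of score 50.80, near the bottom of the list. Run length and score showed no rank relation across the 630 peaks (Spearman rho 0.01, a description across peaks of 1 list). The run read CA on the plus strand in 311 peaks and TG in 319. Its centre lay a median of 69.5 bp from that of the peak and within 100 bp in 394 peaks (62.5%). Averaged over the bases within 100 bp of the centre, 10.8% of IgG peaks had the base in a run, against 0.479% beyond 500 bp. Pool 3 reached 11.2%, pool 2 reached 9.78% and pool 1 reached 7.26% over the same bases.

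**Figure D1:**
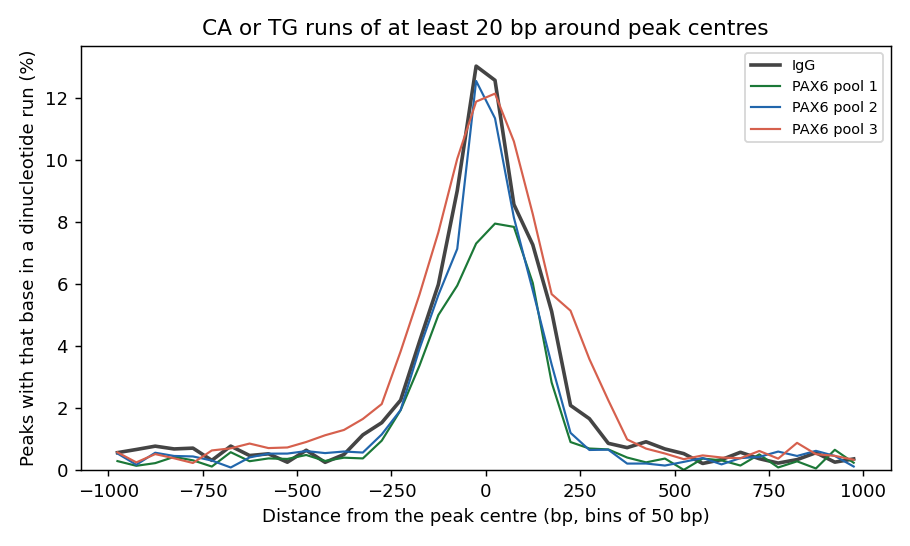
Share of peaks (%) whose base at each distance from the peak centre (bp, bins of 50 bp) lay in a CA or TG run of at least 20 bp, for the IgG list and the PAX6 lists (lines). All 4 lines rise at the centre, to 13.01% for IgG and 7.94% for pool 1, and stay low beyond 500 bp.

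Some rarer repeat units were found mainly in 1 PAX6 pool. An AAC unit was found in 4 IgG peaks (0.398%) and in 119 peaks of pool 2 (11.7%), but in only 7 of pool 1 and 3 of pool 3. The AAG unit was in 4 IgG peaks (0.398%) and 39 peaks of pool 2 (3.83%). AACCCT, the vertebrate telomere unit, was in 1 IgG peak and in 12 peaks of pool 3 (1.69%). That IgG peak was also the narrowest of the list at 190 bp and lay 26.2 kb from the body of Gfra1, which encodes the receptor for GDNF that works with RET in the enteric nervous system. AG runs were in 94 IgG peaks (9.34%), beside 10.2%, 11.1% and 7.58% in pools 1 to 3 and 1.88% of the windows. These counts are of whole lists and no test was made of single units.

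In all, 730 IgG peaks (72.6%) held an exact run of some unit of 1 to 6 bases, against 12.5% of the windows. The PAX6 lists held 64.2%, 79.3% and 69.7% in pools 1 to 3, so pool 2 stood above IgG, and IgG exceeded their mean by 1.52 percentage points (p = 1.00 in the exact permutation test). A further 100 peaks thus had a run of another unit and none of CA, and 276 (27.4%) had no exact run. Of those 276 peaks, 157 had a CA or TG run of 12 to 19 bp. Of the same 276, 81 (29.3%) held an imperfect tandem repeat, defined as a stretch of 100 bp at least 80% identical to the sequence 1 to 60 bp before it. When every 200th window was examined, 3.32% met this measure, as did 482 of all IgG peaks (47.9%). In the peaks with no exact run, CA, AC, TG and GT made up 45.9% of the dinucleotide steps on average, against 25.6% in the windows and 47.6% in the peaks with a CA or TG run. The 195 peaks with neither an exact nor an imperfect repeat (19.4%) had a median score of 65.63, close to the 65.61 of the whole list.

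For imperfect repeats the order of the lists differed from that for exact runs. Pool 3 had 65.4% (61.9 to 68.9), pool 2 had 47.9% and pool 1 had 36.2% (32.1 to 40.5), so IgG lay within the range of the PAX6 lists. The G and C share of the bases was 42.7% in IgG peaks, 41.4% in pool 1, 42.9% in pool 2 and 45.1% in pool 3, and 41.8% in the windows. The difference of -0.40 percentage points between IgG and the mean of the PAX6 lists gave p = 0.75 in the exact permutation test.

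Widths of IgG peaks ran from 190 to 1134 bp, with quartiles at 350.5 and 518 bp. The widest lay 10.5 kb upstream of Mrps18a, a mitochondrial ribosomal protein gene, and scored 50.88. The next widest, of 1084 bp, lay in an intron of Styk1, a kinase gene, and scored 59.31. The third widest, of 1070 bp, was the peak in Spock1 with the highest score of the list. Width and score showed a weak negative rank relation over the 1007 peaks (Spearman rho -0.21), so wide peaks were not the high scoring ones as a rule.

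The score is the authors' log-transformed p-value from MACS, and some of its values are shared by many peaks. The 1007 peaks had 486 distinct scores, and 338 peaks (33.6%) stood at 11 scores that at least 10 peaks shared. The most common score, 68.75, was held by 67 peaks whose widths all lay between 314 and 364 bp. The next, 56.26, was held by 52 peaks of 315 to 408 bp, and 99.39 was held by 23 peaks of 236 to 344 bp. Ties of this kind took up 18.9% of pool 1, 29.9% of pool 2 and 31.2% of pool 3. Ranks among IgG peaks are coarse for this reason, and tied peaks are given the same rank here.

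**Figure D2:**
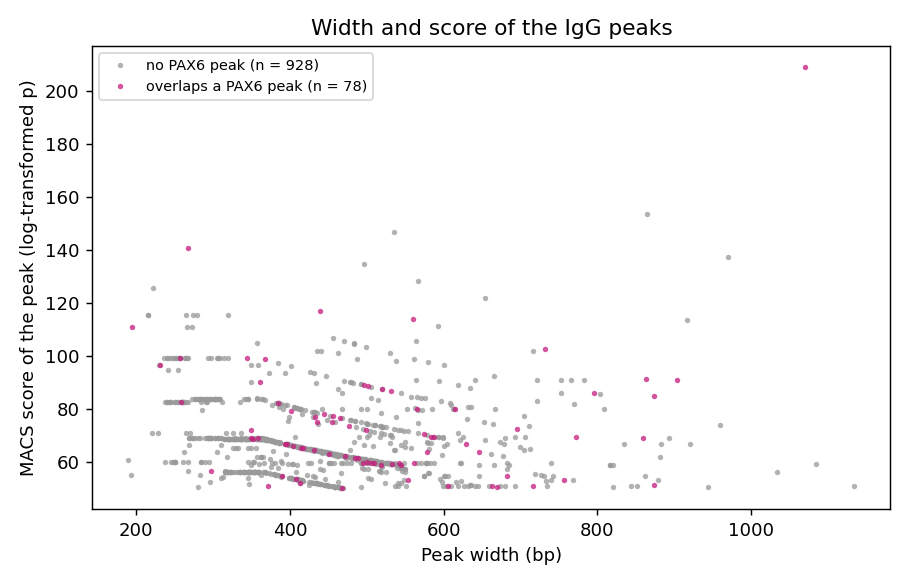
Width (bp) and MACS score (log-transformed p) of each of the 1006 IgG peaks on chromosomes 1 to 19 and X, one point a peak, with the 78 that overlap a PAX6 peak in colour. Many peaks fall on a few lines, such as the level of 68.75, and the peak in Spock1 stands alone at 1070 bp and 209.19.

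The 10 highest scoring peaks lay in or near genes of different function. Spock1, a proteoglycan of the extracellular matrix of the nervous system, held the first at 209.19, in an intron and 80.6 kb from the nearest start site (chr13:57716407-57717476). The second, at 153.51, lay 66.5 kb upstream of Actrt2, an actin-related gene of the testis. The third, at 146.66, was in an intron of Mgat4a, which encodes an enzyme that branches N-glycans. The fourth lay 4.21 kb upstream of the predicted gene Gm9343 at 140.93.

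Introns of genes held all but 1 of the rest. Khdrbs2, an RNA-binding protein, held the fifth at 137.29, whose nearest start site was that of the predicted gene Gm9839. Ctnna3, an alpha catenin of cell junctions, held the sixth at 134.58, in a part of the gene 509.6 kb from the nearest start site, a U6 gene. Mdga2, a membrane protein that binds neuroligins, held the eighth at 125.74. Prkcb, protein kinase C beta, held the ninth at 121.75, and Kcnab2, a subunit of voltage-gated potassium channels, held the tenth at 117.09. The seventh, at 128.45, lay between genes, 3199 bp from the defensin pseudogene Defa-ps13 and 4.12 kb from Defb3, an antimicrobial defensin. Of the 35 IgG peaks at 100 or more, 22 had an exact CA or TG run, a share like that of the whole list.

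The centres of 606 peaks lay between genes (60.2%) and of 395 in introns (39.3%), against 60.002% and 36.7% of the bases of mm9. Exons outside the coding sequence held 4 centres (0.398%, Wilson interval 0.155 to 1.02), where they make up 1.94% of the bases. Coding exons held 1 (0.0994%, 0.0175 to 0.561), where they make up 1.36%. These 5 peaks are named after their positions were seen. The one in coding sequence lay in Dock5, a guanine nucleotide exchange factor, at 50.62. The others lay in Tnfrsf11a, the receptor RANK of osteoclasts, in Pou1f1, a pituitary transcription factor, in 1600014C10Rik and in 6820431F20Rik, at 62.52, 52.91, 50.80 and 52.96. Exonic peaks were thus few and all stood below the median score.

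Few peaks lay close to a start site, and the share of mm9 this close to one was not computed. Within 1 kb of a transcription start site lay 20 IgG peaks (1.99%), beside 1.43% of pool 1, 4.32% of pool 2 and 3.37% of pool 3. The peak 427 bp from a U6 gene on chromosome 11 scored 99.39, the highest level among the 20. Spata19, a testis gene, had one 922 bp upstream at 90.80. Tk1, thymidine kinase, had one 216 bp downstream of its start on a TG or CA run of 59 bp, at 69.13. At the other end, 14 of the 1006 peaks lay more than 500 kb from any start site. The median distance was 30.1 kb, 0.41 kb below the mean of the PAX6 lists, with p = 1.00 in the exact permutation test.

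The nearest gene was protein-coding for 620 peaks (61.6%), close to the 59.997% that such genes make up of the 37252 annotated. Genes of small RNAs (snRNA, snoRNA, miRNA, misc_RNA and rRNA) were nearest to 199 peaks (19.8%) and make up 14.4% of genes, and pseudogenes were nearest to 99 (9.84%) and make up 13.96%. No gene of a small RNA overlapped an IgG peak. The nearest genes were 942 different genes, so few genes drew more than 1 peak.

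Long genes held most of the intragenic peaks. A peak overlapped the body of 359 of the 22350 protein-coding genes, a background of 1.61%. The share rose from 0.0678% of genes under 10 kb to 4.91% at 100 to 200 kb, 11.5% at 200 to 500 kb and 28.5% of the 200 genes of 500 kb or more. Per length of gene body the density was more even, at 3.32 peaks per 10 Mb in genes of 10 to 50 kb, 4.11 at 200 to 500 kb and 4.04 at 500 kb or more. Genes under 10 kb had 1.75. The median length of the host genes was 138.6 kb, against 15.4 kb for all protein-coding genes, and the hosts in pools 1 to 3 had medians of 130.2, 146.0 and 136.8 kb.

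**Figure D3:**
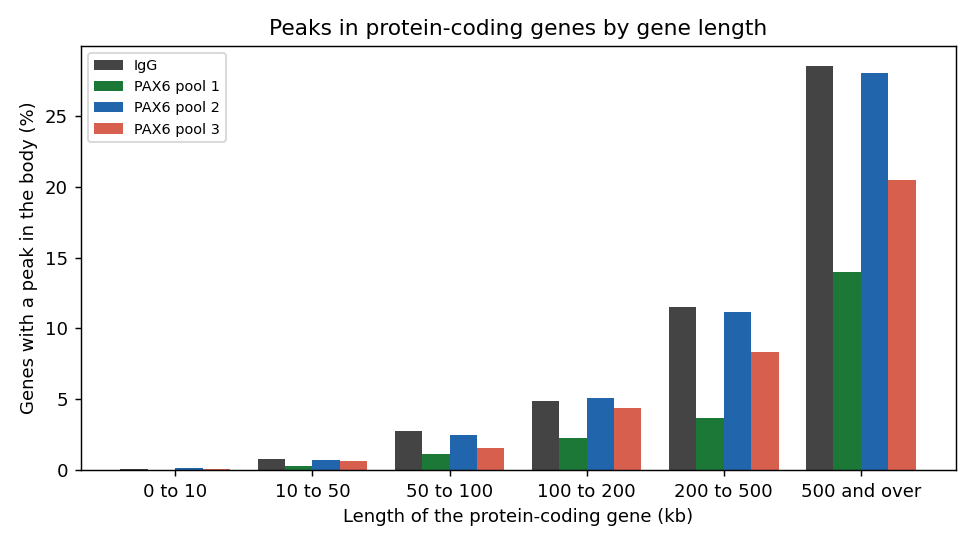
Share of protein-coding genes (%) with a peak in the body, by gene length (kb), for the IgG list and each PAX6 list (bars). In all 4 lists the share rises with length, in IgG from 0.0678% under 10 kb to 28.5% at 500 kb or more.

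Of the 359 host genes, 87 (24.2%) also held a PAX6 peak of some pool, which is 12.3% of the 708 genes with a PAX6 peak. Those 708 are out of all 22350 protein-coding genes. For pools 1 to 3 the counts over the same 22350 genes were 149, 350 and 268. By pool, 23 hosts were shared with pool 1 (6.41% of the IgG hosts and 15.4% of those of the pool), 47 with pool 2 (13.1% and 13.4%) and 37 with pool 3 (10.3% and 13.8%). Only Hs6st3, a heparan sulfate sulfotransferase gene of 731.2 kb, and the predicted gene Gm20388, of 4435 kb, held peaks of all 4 lists. The length of the genes moves with these shares, and its part in them was not tested.

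In 25 genes the body held 2 or more IgG peaks. Their median length was 471.2 kb, 14 of them were longer than 400 kb, and 17 also held a PAX6 peak. Among all 22350 protein-coding genes, 708 held a PAX6 peak. No count matched for gene length was made. Gm20388 and Thsd7b, which encodes a thrombospondin domain protein, held 3 each. The peaks of Thsd7b scored between 56.26 and 82.57 and lay within 302.6 kb of each other. Among the genes with 2 were Ctnna3, Spock1 and Prkcb from the top of the list, Park2, a ubiquitin ligase gene of 994.5 kb and Prkg1, a cGMP-dependent kinase gene of 1196 kb. Prkg1 acts in smooth muscle relaxation, and its peaks scored 59.49 and 85.85. The shortest was the transcript Gm13026 at 23.3 kb.

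Genes of the enteric nervous system were examined for IgG peaks within 10 kb of the body, a reach that took in 643 of all 37252 genes (1.73%). Of 32 annotated genes from the RET and EDNRB pathways and other causes of Hirschsprung disease, 1 had a peak. It was Nrg3, an ErbB4 ligand gene of 1104 kb, with an intronic peak of 68.75 on a CA or TG run of 46 bp. None of 12 enteric glia genes, 19 enteric neuron genes and 13 smooth muscle and mesenchyme genes had one. With lists this short, a share equal to the background would give less than 1 gene in each, so counts of 0 or 1 say little.

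Within 100 kb, where 8.00% of all genes had a peak, 5 Hirschsprung genes did (15.6%). Beside Nrg3 these were Gfra1, Prok1, a prokineticin, Erbb2, a receptor tyrosine kinase, and Sema3c, a guidance cue of the class 3 semaphorins, at gaps of 26.2, 26.8, 60.5 and 82.6 kb. Of the neuron genes 3 did (15.8%), among them Elavl3, a neuronal RNA-binding protein, and Tac1, the precursor of substance P, at 63.8 and 88.7 kb. No glia, smooth muscle or mesenchyme gene did.

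Genes that bear on the PAX6 results were also examined. Of 19 genes around the PAX6 binding regions named by the study, 1 had an IgG peak within 10 kb (5.26%, beside 1.73% of all genes). Wdr95, a WD repeat gene, held 2 in introns, of 53.45 and 74.19, on CA or TG runs of 42 and 23 bp. Neither overlapped a PAX6 peak. The first of the 2 lay 40.4 kb from the closest peak of pool 1 and of pool 3 and 422.9 kb from that of pool 2. Of 23 annotated genes known to be regulated by PAX6, none had an IgG peak within 10 kb and 3 had one within 100 kb. Among these, Prox1, a homeobox factor of neural and lymphatic progenitors, had one 11997 bp away at 88.88, which lay wholly within a pool 1 peak of rank 88, and Gcg, the proglucagon gene, had one 18.6 kb away at 99.39.

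Among families, the glutamate and GABA receptors held 8 genes with a peak of 51 (15.7%) and the potassium channels 9 of 96 (9.38%), beside 1.73% of all genes. Both families have long genes. Among genes of 200 kb or more, a peak in the body was found for 7 of 22 receptor genes (31.8%), 4 of 17 potassium channel genes (23.5%) and 144 of all 954 protein-coding genes (15.1%). The receptor genes included the NMDA receptor subunits Grin2a, Grin2b and Grin3a, the kainate receptor Grik4, the delta receptor Grid1 and the metabotropic receptor Grm7, with scores from 61.09 (Grm7) to 82.12 (Grin3a) among those named. All 8 peaks were intronic. Kcnab2 had the highest peak of the potassium channel genes at 117.09, and Kcnma1, the large-conductance calcium-activated channel of smooth muscle and neurons, had one at 68.75.

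Large families of short genes were near the bottom. Olfactory receptors had a peak within 10 kb at 8 of 1251 genes (0.639%), vomeronasal receptors at 1 of 437 (0.229%), microRNA genes at 3 of 559 (0.537%) and immunoglobulin segments at 0 of 147. The microRNA genes were Mir122a, the abundant microRNA of liver, Mir205, of epithelia, and Mir328, at gaps of 3687, 5614 and 7542 bp. Zinc finger protein genes had 4 of 376 (1.06%), solute carriers 4 of 358 (1.12%) and the predicted genes named Gm 95 of 9215 (1.03%). Collagen and laminin genes had 2 of 55 (3.64%), Col23a1 and Col24a1, phosphodiesterases 2 of 27 (7.41%), Pde4d and Pde8a, and the cadherins 1 of 67 (1.49%), Pcdh15 at 105.61. The Speer family, testis genes in tandem copies, had 2 of 12 (16.7%), Speer4e and Speer7-ps1. The class 3 semaphorins and neuropilins had none of 9, and the network genes of the study none of 9.

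IgG peaks were spread over every chromosome tested, at 3.97 per 10 Mb on the autosomes together. Chromosome 10 was the densest with 5.62 per 10 Mb and 73 peaks, followed by chromosome 17 with 5.25 and chromosome 5 with 5.11. Chromosome 7 was the sparsest autosome with 2.82. Chromosome X had 24 peaks, or 1.44 per 10 Mb (exact Poisson 95% interval 0.923 to 2.14, counting error only), below every autosome. A further peak, of 83.78, lay on an unplaced piece of chromosome Y. The X chromosome was at 0.363 times the autosomal density in IgG, at 0.799 times in pool 1, at 0.420 times in pool 2 and at 0.0628 times in pool 3. Windows with a CA or TG run were also fewer on X, at 3.25% (2.54 to 4.15) against 4.37% (4.14 to 4.62) on the autosomes. The sex of the mice was not given in the labels, and its part in these densities was not tested.

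**Figure D4:**
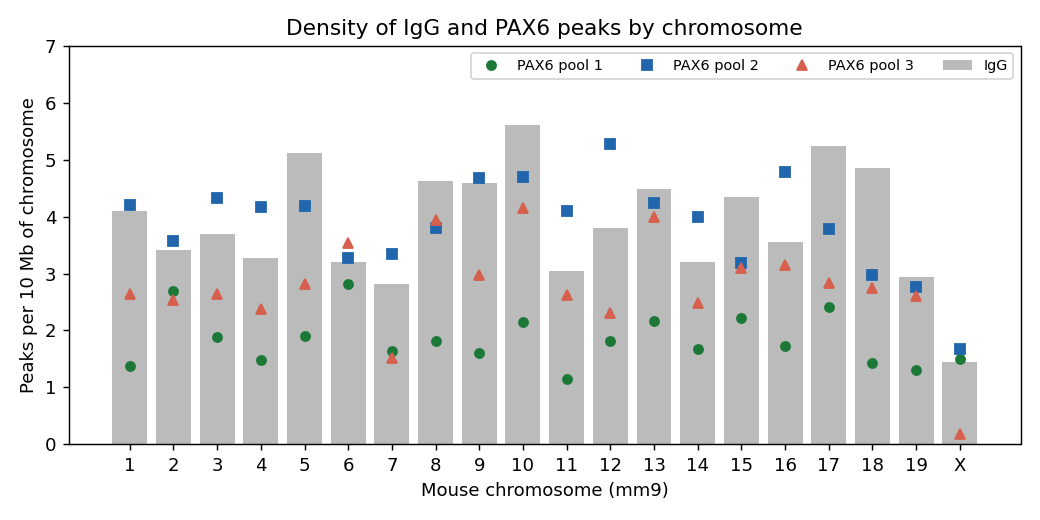
Peaks per 10 Mb of each mouse chromosome (mm9) for IgG (bars) and the PAX6 pools (symbols). IgG is highest on chromosome 10 (5.62) and lowest on X (1.44), where pool 3 is at 0.180.

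At a finer scale, 539 windows of 5 Mb had a median of 2 IgG peaks, 117 windows had none and 4 had 8 or more. The fullest, at 80 to 85 Mb of chromosome 18, held 14. PAX6 peaks in the same window numbered 5 for pool 1, 2 for pool 2 and 5 for pool 3, and 6 of the 14 IgG peaks overlapped a PAX6 peak, 4 of them in pool 1. The 14 peaks scored only 50.61 to 79.98. They included introns of Mbp, the myelin basic protein gene, of Zfp236 and of Zfp407, and a peak 161.0 kb from the start of Tshz1, a zinc finger homeobox gene. The window at 65 to 70 Mb of chromosome 10 held 9 IgG peaks and 1 of each PAX6 pool, with no overlap and with a CA or TG run in 1 of the 9. One of these lay in an intron of Arid5b, a chromatin factor, at 77.00. The window at 125 to 130 Mb of chromosome 8 held 9 and the one at 150 to 155 Mb of chromosome 4 held 8, among them the peaks of Actrt2 and Kcnab2. These windows were chosen as the fullest, so their counts are a description.

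Close clusters were rare. Joined at gaps of up to 10 kb, 20 peaks (1.99%) formed 10 pairs and no larger group. One pair each lay in Cpne5, a copine, in Wdr96, in Myrip, which links the motor myosin VIIa to Rab proteins, and in Gm13026. The closest pair was 504 bp apart, between genes and nearest to Cdh6, a cadherin. The pair with the highest scores, 90.80 and 99.01, lay nearest to Lmo4, a LIM domain factor. At gaps of up to 100 kb the largest group had 4 peaks, over 132.8 kb from Myrip to Entpd3, an ectonucleotidase, with scores of 53.42 to 66.50. Groups of 3 lay at Tbx5, a heart and limb factor, near Irf2bp2, and at Cpne5.

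An overlap of at least 1 bp with a PAX6 peak was found for 78 IgG peaks (7.75%, Wilson interval 6.25 to 9.56). Pool 1 alone accounted for 36, pool 3 alone for 23 and pool 2 alone for 15, 4 overlapped peaks of 2 pools and none peaks of all 3. The median length of the overlap was 438 bp for pool 1, 376 bp for pool 2 and 350 bp for pool 3. As a share of the IgG peak, the median overlap was 91.7% for pool 1, 100% for pool 2 and 67.9% for pool 3, where it went down to 11.2%. Near misses were few, since allowing a gap of 1 kb added 1 peak. Within 100 kb of a PAX6 peak lay 253 IgG peaks (25.1%), the 78 that overlapped one included. The share of mm9 this close to a PAX6 peak was not computed.

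The overlap with pool 1 was concentrated among high IgG scores. Of the 250 IgG peaks of rank up to 250, 20 (8.00%, 5.24 to 12.03) overlapped a peak of pool 1, against 18 of the other 757 (2.38%, 1.51 to 3.73). In pool 2 the shares were 1.60% (0.624 to 4.04) and 1.72% (1.01 to 2.92), and in pool 3 they were 2.80% (1.36 to 5.67) and 2.64% (1.72 to 4.05). The limit at rank 250 was chosen after the values were seen, and the intervals cover counting error only. IgG and pool 1 carry the same pool label, and the part of shared cells or sequencing in this was not tested.

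**Figure D5:**
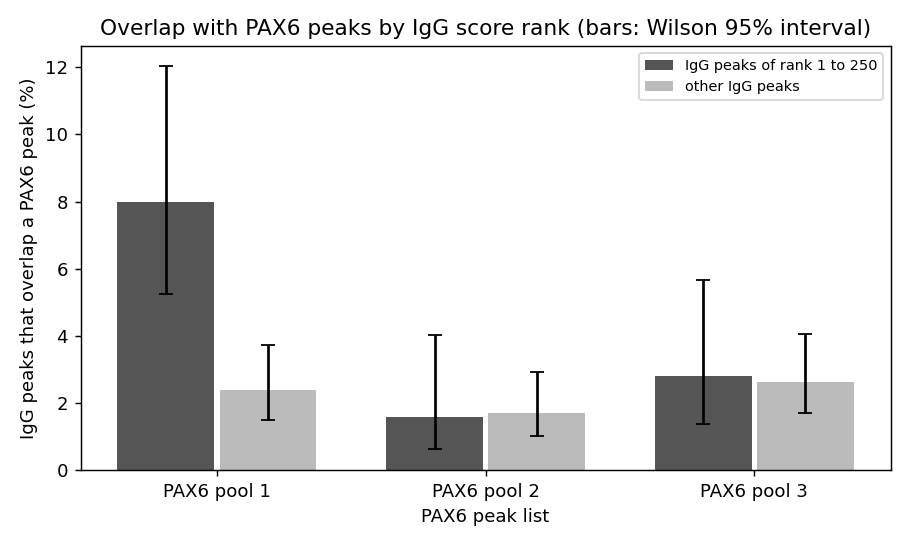
Share of IgG peaks (%) that overlap a PAX6 peak of each pool, for IgG peaks of rank 1 to 250 (dark bars) and all others (light bars), with Wilson 95% intervals as error bars. The bars of pool 1 stand apart (8.00% and 2.38%), while those of pools 2 and 3 are close to each other.

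The shared peaks had a median IgG score of 69.13 and a median width of 496 bp, against 65.39 and 427 bp for the 928 others. An exact CA or TG run was in 48 of the 78 (61.5%, 50.4 to 71.6) and in 582 of the others (62.7%, 59.6 to 65.8), so shared and unshared peaks could not be told apart by it. Imperfect repeats were in 47 of the 78 (60.3%, 49.2 to 70.4) and in 435 of the others (46.9%, 43.7 to 50.1). The intervals overlap slightly, the difference was not tested, and the shared peaks were the wider ones. Introns held 30 of the shared peaks (38.5%) and 39.3% of the others.

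Scores cannot be compared between lists, so the shared peaks are given with the rank in each. The peak in Spock1, first for IgG, was of rank 10 in pool 1, and that near Gm9343, of rank 4 for IgG, was of rank 464 in pool 1. Kcnab2 was of rank 10 for IgG and 65 in pool 1, and Slc45a1, a sugar transporter, of rank 36 and 62. Cdc7, a kinase of DNA replication, was of rank 17 for IgG and 412 in pool 3. The U6 gene on chromosome 11 was of rank 36 for IgG and 637 in pool 2. High IgG ranks were thus met at both ends of the PAX6 lists.

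The reverse view takes the PAX6 lists from the top. The paper states that peaks overlapping those of IgG were removed from its analysis, whereas the lists used here still hold them. An IgG peak lay under 38 of the 491 peaks of pool 1 (7.74%), 17 of the 1032 of pool 2 (1.65%) and 27 of the 724 of pool 3 (3.73%). Within the first 50 ranks, which are a larger part of the shorter lists, an IgG peak was overlapped 6 times in pool 1, 1 time in pool 3 and 0 times in pool 2. In pool 1 the first of them, of rank 6 (607 for IgG), lay in the window at 80 to 85 Mb of chromosome 18. The others included an intron of Ddo, D-aspartate oxidase, of rank 8 (107 for IgG), Spock1 of rank 10 and an intron of Arhgap15, a Rac regulator, of rank 18 (206 for IgG). In pool 3 it was the peak beyond Gulp1, an adaptor of phagocytosis, which had rank 5 there and rank 20 for IgG and lies on the ACTCT repeat printed above. Lower in pool 3 came introns of Nlgn1, a synaptic adhesion protein, of rank 58, of Nfrkb, a chromatin remodelling subunit, of rank 62, and of Kcnip1, a potassium channel regulator, of rank 158. The highest of pool 2 lay near Pkd1l2, of rank 69 there and 966 for IgG.

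The 4 IgG peaks shared with 2 pools, printed above, had IgG scores from 53.10 to 77.93. Near Habp4, which encodes a hyaluronan-binding protein, the IgG peak scored 77.93 (rank 232) and the PAX6 peaks were of rank 57 in pool 1 and 273 in pool 3. In Bcar3, an adaptor of integrin signalling, it scored 69.53 (rank 300), with ranks 441 and 538 in pools 1 and 3. Near Ocm, the calcium-binding oncomodulin, it scored 59.99 (rank 672), with ranks 183 and 213 in pools 2 and 3. In Stau2, an RNA-transport protein of neurons, it scored 53.10 (rank 916), with ranks 103 and 537 in pools 2 and 3. The repeat in Stau2 matched itself at 100% over 100 bp at a shift of 38 bp. All 4 lay on repeats, and 2 of the 4 had no exact run of CA or TG.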

How the data were processed

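Peak lists of EPCs from CD1 mice at P7 were used. Reads were merged by group, aligned with Bowtie to mm9 and turned into peaks with MACS by the authors (their versions are not given in the sources used here). MACS scores are used as deposited by the authors and are log-transformed p-values. A score depends on depth, so ranks were taken only within a list, and the depth of the libraries is unknown. Some settings still applied the same score limit to every list, and these settings compare unlike parts of the lists. The control of the IgG call is described only as input.

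Annotation used GENCODE M1 for mm9 (37252 genes on chromosomes 1 to 19 and X). Distances run from the peak centre to the closest start site. Runs are uninterrupted, on either strand, and at least 20 bp long. The 4 lists were compared by an exact permutation test over lists (IgG against the PAX6 pools). Shares have Wilson 95% intervals. The searches were tested on simulated data.

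The members, lists and tests were chosen with earlier results of these data known. Genes were named where they were nearest to or hosted the 10 highest scoring, 3 widest, 10 highest shared and all peaks shared with 2 pools, lay in clusters, held the most peaks or belonged to the lists. Imperfect repeats, runs of any unit, the rank limit of 250 and the length limit of 200 kb were added after the data were seen. Tools were scipy 1.17.1, numpy 2.4.6, pysam 0.24.0, matplotlib 3.10.9 and Python 3.11.15. The planned soft-masked share of bases was not run, because the genome file used is written in capitals throughout. Some genes and sequences covered by the naming rule are not reported here.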

Additional observations from a re-analysis of the deposited data

How the results depend on the processing

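The excess of IgG in exact CA or TG runs (8.30 percentage points) kept its sign with runs of 12 bp (11.18) or 30 bp (4.70), the central 200 bp (6.53), score limits of 70 (9.14) and 100 (14.76), the removal of PAX6 peaks under IgG peaks (8.32) and each pool left out (5.77 to 9.64). The limit of 100 left 35 IgG peaks and only 7 of pool 1. The shares with a CA or TG run at the limit of 100 were 62.9% in IgG and 57.1%, 31.0% and 56.2% in pools 1 to 3. With runs of any unit the excess was 1.52 and with imperfect repeats -1.95, both added after the data were seen. The G and C difference of -0.40 points ran from -1.27 to 0.59 with a pool left out, and was 0.59 without pool 3. The distance difference of -0.41 kb was 9.78 kb at scores of 70 or more, and ran from -1.95 to 0.60 kb with a pool left out (0.11 without pool 1, 0.60 without pool 2). The causes were not tested. The exact p was never below 0.25, the smallest that 4 lists allow, so no p bears on stability.

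The 78 shared IgG peaks fell to 18 and 2 at scores of 70 and 100 or more in every list. These limits left 299 and 35 IgG peaks and kept unlike shares of the lists. With a pool left out, the number of shared IgG peaks ran from 42 to 63, 42 being without pool 1. Genes within 10 kb (643) were 393 in the body alone, 2981 within 100 kb and 180 at scores of 70 or more. Clustered peaks (20) were 2, 60 and 115 with gaps of 1, 50 and 100 kb, and 4 at scores of 70 or more. No paired analysis was possible because libraries were merged before peaks were called. The soft-masked share was not run. Depth is unknown and limits every count of peaks.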
